A study of Caenorhabditis elegans with 2 samples.

Results

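Genes for the synthesis and breakdown of cysteine were examined for binding of HIF-1, the hypoxia-inducible factor of the nematode Caenorhabditis elegans. The 8 genes were cbs-1, cbs-2, cth-1, cth-2, cysl-1, cysl-2, cysl-3 and cdo-1, out of 19985 protein-coding genes in the Ensembl release 115 models of the WBcel235 assembly. They were chosen by name for their enzyme roles, and the rule used no measured value. For each gene, every peak summit from 5 kb upstream of the gene start to 1 kb past the gene end was taken.

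The data came from chromatin immunoprecipitation sequencing (ChIP-seq) of 1 group in 2 biological replicates, each from its own biosample. Both replicates were whole hermaphrodites of the transgenic strain OR3350 at larval stage L4, collected 55 h after synchronisation as starved L1 larvae. HIF-1 carried a GFP-FLAG tag at its C-terminal end in all animals, and the description of the samples names an antibody against GFP, whereas their antibody label reads hif-1. The labels give neither the oxygen level nor the promoter that drove the tagged protein. There was no second condition to compare with, and whole animals do not show in which tissue a site was bound. The authors deposited a list of peaks for each replicate, a list for the pooled reads, and a thresholded set derived from these lists. The thresholded set held 631 peaks (612 nuclear and 19 mitochondrial), the pooled list 6541, replicate 1 13935 and replicate 2 13823. Membership in the set does not show that a given peak was alike in both replicates. Of its 612 nuclear peaks, 602 had a summit of both replicates within 150 bp, and the peak of rank 205 ranked 381 and 11283 in them. Each peak has a signal value of the authors, on a scale of its own in each list, so only ranks within a list (1 for the highest signal) are set side by side. Sequencing depth is unknown because the lists hold no read counts.

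In transsulfuration, cystathionine beta-synthase (the product of cbs-1 and cbs-2) joins homocysteine to serine, and cystathionine gamma-lyase (cth-1 and cth-2) releases cysteine from the cystathionine that forms. The cysl genes encode cysteine synthase-like proteins related to the sulfhydrylases of plants and bacteria. In C. elegans, CYSL-1 is known to bind the prolyl hydroxylase EGL-9 and to relieve its inhibition of HIF-1, downstream of RHY-1, and CYSL-2 is a cyanoalanine synthase whose gene is widely used as a reporter of HIF-1 activity. Cysteine dioxygenase, the product of cdo-1, oxidises cysteine to cysteine sulfinate and so opens the route of cysteine breakdown, and cdo-1 is known in this worm as a gene that HIF-1 activates.

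The sequences at the member summits are given first, because HIF proteins bind a short core, ACGTG or GCGTG, that can be looked for by eye. The lines below give the plus strand of the RefSeq WBcel235 (ce11) genome, 5′ to 3′, in windows of 101 bases centred on the summit. For cdo-1 a window of 25 bases is given, since its summit lies in the annotated 3′ UTR of the neighbouring gene lgl-1. Capitals mark ACGTG or GCGTG on either strand, so that CACGT and CACGC on the plus strand count as well. The first 4 lines are the thresholded summits with the core.
cbs-1 summit at -2420 bp (chrX:10051805-10051905): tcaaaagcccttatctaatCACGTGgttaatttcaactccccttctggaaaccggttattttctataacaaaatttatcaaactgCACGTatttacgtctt
cysl-2 summit at -1127 bp (chrII:14495528-14495628): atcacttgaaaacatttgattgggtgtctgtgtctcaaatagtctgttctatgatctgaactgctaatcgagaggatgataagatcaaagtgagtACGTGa
cysl-3 summit at -1046 bp (chrV:3777132-3777232): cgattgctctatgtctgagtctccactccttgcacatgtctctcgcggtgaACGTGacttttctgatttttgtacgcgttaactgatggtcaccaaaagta
cdo-1 summit at -971 bp (chrX:864526-864550): ttacaaagggGCGTGgtttggaaat
The next pair are thresholded summits without the core in this window, shown for comparison.
cysl-2 summit at -2477 bp (chrII:14496878-14496978): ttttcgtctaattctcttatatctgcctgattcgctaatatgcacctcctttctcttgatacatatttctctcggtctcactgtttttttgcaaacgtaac
cysl-1 summit at -4252 bp (chrX:9958735-9958835): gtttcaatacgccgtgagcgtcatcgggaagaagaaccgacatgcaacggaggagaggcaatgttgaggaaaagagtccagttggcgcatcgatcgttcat
The last pair are the summits just under the signal limit of the thresholded set, both of which lie closer to a gene start and hold the core.
cysl-2 summit at -394 bp (chrII:14494795-14494895): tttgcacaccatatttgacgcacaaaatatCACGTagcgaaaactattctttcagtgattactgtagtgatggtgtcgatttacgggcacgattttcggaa
cysl-3 summit at 922 bp (chrV:3775164-3775264): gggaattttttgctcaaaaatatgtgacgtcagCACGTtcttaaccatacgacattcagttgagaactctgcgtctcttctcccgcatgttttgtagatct

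A thresholded summit lay in the windows of 5 of the 8 genes, namely cbs-1, cysl-1, cysl-2, cysl-3 and cdo-1, where 5.72% of all protein-coding genes (1144 of 19985) had one. The genes without one were cbs-2, cth-1 and cth-2. Among genes of the same range of length (1312 to 3254 bp) the share was 4.83% (410 of 8487). The X chromosome carried cbs-1, cysl-1 and cdo-1, and 6.81% of its genes had a thresholded summit in the window. Windows of neighbouring genes overlap, so 1 summit can count for several genes. The genes were chosen with earlier results of these data known, and these counts are a description without a test.

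The 5 genes with a thresholded summit held 7 such summits in all, 3 of them at cysl-2. Of all protein-coding genes, 0.21% (42) had 3 or more in the window. The cysl-2 peaks with summits at -2477 and -2686 bp overlap (14496706 to 14497149 and 14496915 to 14497358). The 3 summits of cysl-2 therefore do not mark 3 separate peak regions. Only the summit at -1127 bp had cysl-2 as the gene of the nearest start, which was dhs-8 for the others. The signal of the 7 ran from 59.4 to 254, in a set that ran from 54.1 to 2273 with a median of 77.8. The highest nuclear signal was 838 (rank 8), and the peaks above it were mitochondrial. A summit at least as strong as that of cdo-1 lay in the windows of 4 of the 8 genes (cbs-1, cysl-2, cysl-3 and cdo-1) and of 1.15% of all protein-coding genes (230). This limit is the signal of a member, taken with the values known, so the count of 4 is fixed by it and is no support. Of the 7 summits 5 were above the median of the set, and the summit of cysl-1 and the weakest of cysl-2 were below it.

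**Figure D1:**
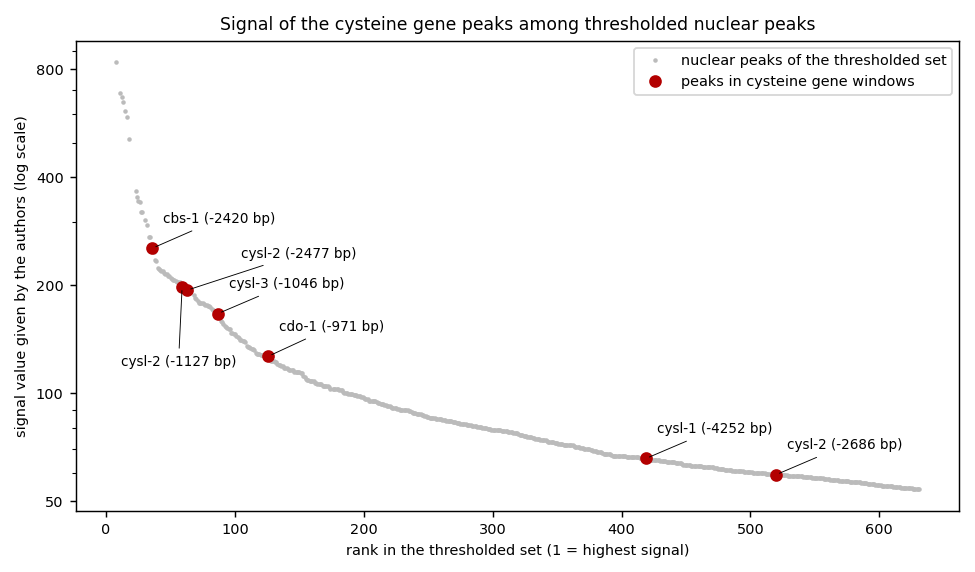
Signal value (authors' scale, log axis) of each nuclear peak in the thresholded set against its rank, with the 7 peaks in the windows of cysteine genes in red and their distance from the gene start in bp. The cbs-1 peak (signal 254, rank 36) is the highest of the 7, and those of cysl-1 (65.9) and the third of cysl-2 (59.4) are in the weaker range.

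In the transsulfuration group only cbs-1 had a thresholded summit. The gene cbs-1 (WBGene00013866, chromosome X, 10054275 to 10057528, plus strand) had the strongest summit of all 8 genes, with a pooled signal of 254 and rank 36. A signal at least this high in the window was found for 0.24% of protein-coding genes (48). Of the 8 genes only cbs-1 reached it, which is fixed because the limit is the highest signal among them. In replicate 1 the peak had a signal of 135 and rank 36, and in replicate 2 a signal of 120 and rank 37. It was narrow in the pooled list (210 bp, list median 444 bp) and in replicate 1 (135 bp, list median 430 bp). In replicate 2 it was 464 bp wide, as the list median. The replicate summits lay 10 bp apart, and the rank was nearly the same in both. The summit, at position 10051855, lay 2420 bp upstream of cbs-1 and inside an intron of gnrr-3, which encodes a receptor of the gonadotropin-releasing hormone receptor family. It was 2395 bp downstream of the gnrr-3 start, which makes gnrr-3 the gene with the nearest start by a small margin. Closer to cbs-1, the pooled list held weak summits at -2220 bp (signal 31.8, rank 1936) and at -398 bp (27.8, rank 2795). Replicate 2 had a summit at -392 bp (rank 3794), and replicate 1 had none within 1000 bp upstream of the gene.

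The other cystathionine beta-synthase gene, cbs-2 (WBGene00018783, chromosome II, 2220396 to 2223567, minus strand), had no summit in any of the 4 lists. Of all protein-coding genes, 18.9% (3786) had none either. The proteins of cbs-1 and cbs-2 are 71% identical over the shorter one (704 and 662 residues).

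The cystathionine gamma-lyase genes had only weak summits, each in 1 replicate. For cth-1 (WBGene00009048, chromosome V, 16100680 to 16102750, plus strand) these were in replicate 2, at -4586 bp (rank 9512) and at -183 bp (rank 12262). For cth-2 (WBGene00022856, chromosome II, 7056184 to 7057960, minus strand) they were in replicate 1, at 747 bp (rank 12268) and at 2285 bp (rank 10962). All 4 lay in the weaker range of lists with 13935 and 13823 entries, the pooled list held none of them, and their -log10 q-values were 0.03 to 0.06. The proteins of cth-1 and cth-2 are 86.5% identical, and neither gene had a summit shared by the replicates. Of all protein-coding genes, 24% (4806) had summits of both replicates within 100 bp of each other, so most genes lacked them.

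**Figure D2:**
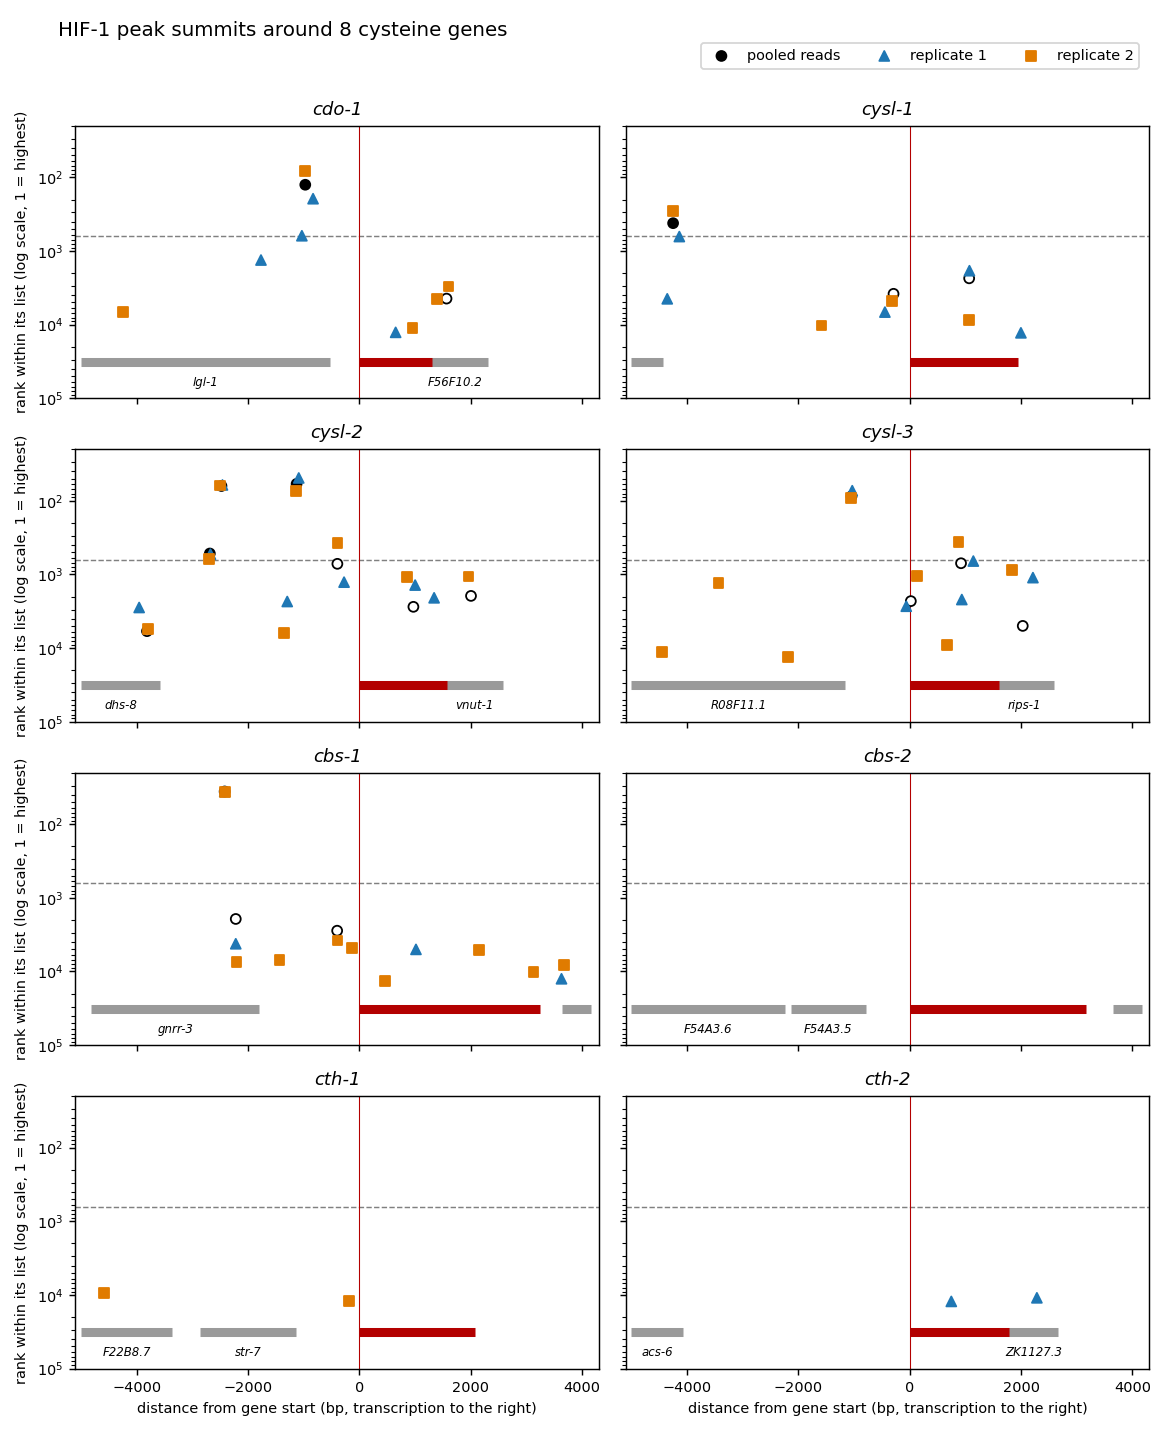
Summits around each of the 8 genes, by distance from the gene start (bp, transcription to the right) and by rank within the list (log axis, lower rank numbers, and so higher signals, at the top). Filled circles are thresholded pooled summits, open circles other pooled summits, triangles replicate 1 and squares replicate 2; red bars are the named gene, grey bars neighbouring protein-coding genes, and the dashed line is rank 631. The panel of cbs-2 is empty, and those of cth-1 and cth-2 hold symbols of 1 replicate only.

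Among the cysteine synthase-like genes, cysl-2 (WBGene00010759, chromosome II, 14492874 to 14494451, minus strand) had the most summits. The first, at position 14495578 and 1127 bp upstream, had a pooled signal of 198 and rank 59. It ranked 49 in replicate 1 (signal 118) and 74 in replicate 2 (81.9). The second, at position 14496928 and 2477 bp upstream, had a pooled signal of 194 and rank 63, with ranks 61 and 62 in the replicates (107 and 90.4). The third, 2686 bp upstream, was weaker (59.4, rank 520) and ranked 532 and 609. All 3 were present in both replicates, with replicate summits 48, 40 and 28 bp apart.

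The region upstream of cysl-2 is shared with dhs-8, a short-chain dehydrogenase gene that is transcribed in the opposite direction. The first summit had cysl-2 as the gene of the nearest start, whereas the second and the third lay 1098 and 889 bp upstream of dhs-8, within the noncoding RNA gene K10H10.14. The third also lay in the noncoding RNA gene K10H10.11. A further summit, 394 bp upstream of cysl-2, was in the pooled list with a signal of 50.9 and rank 718, just under the lowest thresholded signal of 54.1. It ranked 379 in replicate 2 (-392 bp), while the closest summit of replicate 1 lay at -274 bp with rank 1274. This summit, the nearest pooled one to the cysl-2 start, was therefore high in 1 replicate. Inside and beyond the gene the pooled list held weak summits at 972 bp (28.0, rank 2754) and at 2007 bp (31.7, rank 1957).

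The thresholded summit of cysl-3 (WBGene00019962, chromosome V, 3774536 to 3776136, minus strand) lay at position 3777182, 1046 bp upstream, between cysl-3 and the end of R08F11.1. Its pooled signal was 167 (rank 87), with ranks of 73 in replicate 1 (98.5) and 92 in replicate 2 (71.9) and replicate summits 25 bp apart. A further summit in an intron of cysl-3, 922 bp downstream of the start, had a pooled signal of 51.4 and rank 705. It shared the highest -log10 q-value of the pooled list, 2.11, with all 631 thresholded peaks and was not in the thresholded set. The intron summit ranked 365 in replicate 2 (877 bp), while replicate 1 had a summit of rank 2195 at 936 bp and a stronger one of rank 659 at 1143 bp. Both replicates thus had an intron summit within 100 bp of the pooled one, and replicate 1 had its stronger intron summit farther into the gene. A weak pooled summit lay 20 bp downstream of the start (29.9, rank 2305).

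The gene cysl-1 (WBGene00007653, chromosome X, 9952579 to 9954533, minus strand), whose product acts on EGL-9, had a single thresholded summit, and this lay far from it. The summit, at position 9958785 and 4252 bp upstream, was 175 bp upstream of ZC506.1, which is transcribed away from cysl-1. Its pooled signal was 65.9 and its rank 419, in the weaker range of the set. It ranked 285 in replicate 2 (39.3). Replicate 1 had a pair of summits to either side, at -4140 bp (29.2, rank 637) and at -4357 bp (13.4, rank 4462). Neither lay within 100 bp of the replicate 2 summit, and the stronger one fell outside the 631 strongest peaks of replicate 1. Nearer to cysl-1 there were weak pooled summits at -291 bp (25.1, rank 3812) and in an exon at 1068 bp (29.7, rank 2349). The exon summit ranked 1852 in replicate 1 and 8661 in replicate 2.

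By protein sequence, cysl-2 and cysl-3 are 65.9% identical, cysl-1 and cysl-2 57% and cysl-1 and cysl-3 52.5%. The closest relative of cysl-3, cysl-4 (84.6% identical), had no thresholded summit in its window. Of the peaks described, that of cysl-3 had 94.9% of its 36-base sequences unique in the genome, the third of cysl-2 had 99.5%, and the other 5 had 100%. In the windows of cbs-2, cth-1 and cth-2 the shares were 93%, 99.6% and 100%, so most of the sequence in these windows is unique at that length. The read length of these libraries is not known here.

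The cysteine dioxygenase gene cdo-1 (WBGene00018986, chromosome X, 862267 to 863578, minus strand) had its thresholded summit at position 864549, 971 bp upstream. The pooled signal was 127 and the rank 126. In replicate 2 the summit lay 1 bp away with rank 82 (77.4). Replicate 1 instead had a pair of summits, at -831 bp (54.6, rank 195) and at -1032 bp (29.7, rank 621), and none at the pooled summit itself. The stronger was the farther of the pair, 140 bp from the pooled summit, so the rank in replicate 1 depends on which is taken. Replicate 1 also had a summit at -1767 bp (20.8, rank 1327). With the stronger summit the ranks of the replicates differed 2.38 times, against a median of 1.62 times over the nuclear thresholded peaks with a summit of both replicates within 150 bp (602 of 612).

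The summit of cdo-1 lies in the 3′ UTR of lgl-1, a gene on the same strand that ends upstream of cdo-1, and cdo-1 has the nearest protein-coding start. It was the only 1 of the 8 genes with a thresholded summit at the promoter, taken as 1000 bp upstream to 200 bp downstream of the start, where 1.97% of protein-coding genes (394) had one. The summits of cysl-3 (1046 bp) and cysl-2 (1127 bp) lay just beyond that limit. With a promoter of 2000 bp upstream to 500 bp downstream the count was 3 of 8, with 500 bp upstream to 100 bp downstream it was 0. When the 631 top-ranked peaks of replicate 2 were used and replicate 1 left out, it was 2 of 8, cysl-2 being added through its summit at -392 bp. No share over all genes is given beside these alternative counts. The 1.97% holds only for thresholded summits and the promoter of 1000 bp upstream to 200 bp downstream. Over the nuclear thresholded summits the median distance from the nearest protein-coding start was 866 bp, and 49.3% lay more than 900 bp away.

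In the pooled list 5 of the 8 genes had a summit in the window, the same 5 genes, and 39.6% of protein-coding genes did. The same 5 also had a summit of each replicate within 100 bp of one another, as had 24% of all protein-coding genes. For cysl-1 this rested on weak summits, such as those in its exon at 1073 and 1062 bp, and not on the thresholded peak. With the 631 strongest peaks of each replicate, 4 genes remained, cbs-1, cysl-2, cysl-3 and cdo-1. No share over all genes is given beside this count, and the 24% belongs to the full lists. The thresholded set was itself derived from the lists of these replicates and of their pooled reads, so presence in both is not separate support. Of the 612 nuclear thresholded summits, 578 (94.4%) had a summit of each replicate within 100 bp.

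**Figure D3:**
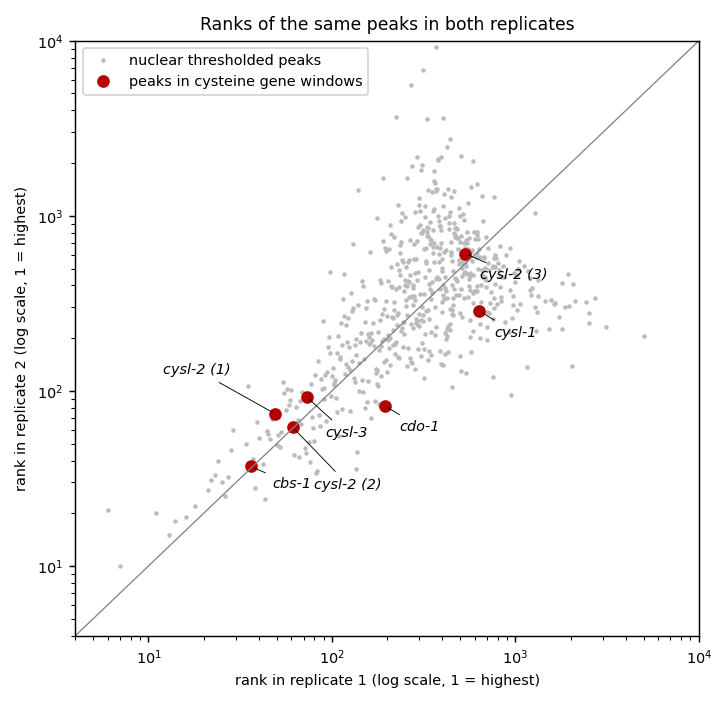
Rank of each nuclear thresholded peak in replicate 1 and in replicate 2 (log axes, 1 is the highest; strongest summit within 150 bp; 602 peaks), with the 7 peaks of cysteine genes in red and the line of equal ranks. Of the 602 peaks, those with rank 11283 in replicate 2 and rank 10216 in replicate 1 lie beyond the axes. The peaks of cbs-1 (36 and 37), cysl-2 and cysl-3 lie near the line, while cdo-1 (195 and 82) and cysl-1 (637 and 285) rank higher in replicate 2.

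The core ACGTG or GCGTG was searched on both strands. It lay within 50 bp of 4 of the 7 summits, against 45.8% of all 631 thresholded summits (289) and 11.9% and 15.4% of windows centred 500 bp to either side. These were the summits of cbs-1, cysl-3 and cdo-1 and the first of cysl-2. Within 25 bp it lay at 2 of the 7 (24.7% of all), and within 100 bp at 7 of the 7 (66.1% of all). Matches that overlap were merged and are counted as 1 place.

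The cbs-1 summit had a pair of core places within 50 bp, which 12.7% of all thresholded summits (80) had at least. One was the palindrome CACGTG, which reads ACGTG on both strands, centred 28.5 bp from the summit. The other, 37 bp away on the other side, was TACGTG. A further CACGTG lay 192.5 bp from the summit. CACGTG was within 50 bp of 8.08% of all thresholded summits and TACGTG within 50 bp of 12.7%. The cysl-3 summit had its core 3 bp away, and the first summit of cysl-2 had TACGTG 47 bp away, at the edge of the window.

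At cdo-1 there were 3 core places within 200 bp, spread over the peak. The GCGTG printed above lay 11 bp from the thresholded summit and 10 bp from the summit of replicate 2. CACGTG lay 158.5 bp away, and 18.5 bp from the stronger summit of replicate 1. The last lay 79 bp away on the other side, and 18 bp from the weaker summit of replicate 1. Each of the 3 places thus had a summit of at least 1 replicate nearby. The places were taken for lying within 200 bp of the thresholded summit, so this closeness is partly fixed and is no support. No share over all thresholded summits is given beside it.

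The remaining thresholded summits had the core farther away. For cysl-1 it lay 54 bp off, as overlapping matches to GCGTG. The second summit of cysl-2 had places at 95, 118 and 138 bp, and the third at 91 bp. GAGAGA, a repeat present within 50 bp of 23.9% of all thresholded summits, lay at the second summit of cysl-2 and at that of cysl-3. TGCGTC, present at 15.2%, lay at none of the 7 thresholded summits but within 50 bp of the summits of cysl-2 and cysl-3 that were just under the limit. The GC content in the 101 bases at each of the 7 summits ran from 34.7% at cbs-1 to 51.5% at cysl-1, against a median of 48.5% over nuclear thresholded summits.

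**Figure D4:**
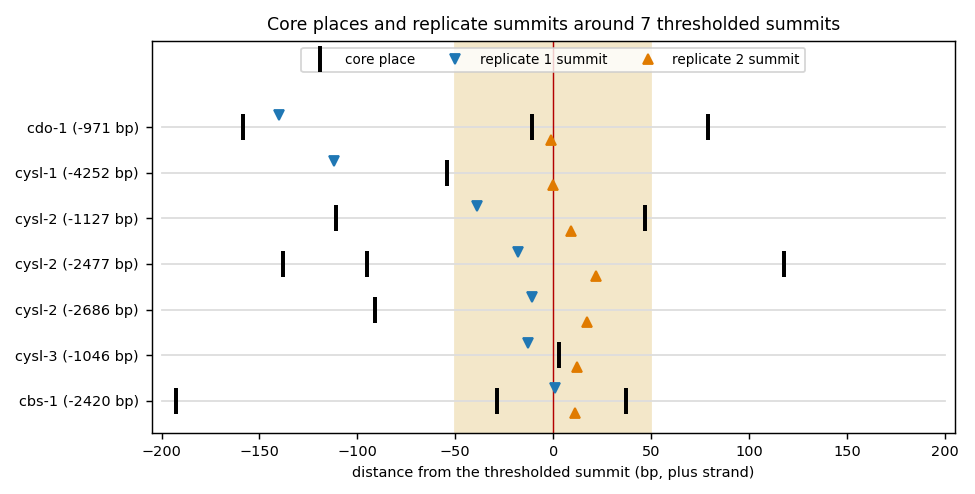
Places of ACGTG or GCGTG on either strand (black ticks) within 200 bp of the 7 thresholded summits, with the matched summits of replicate 1 (blue) and replicate 2 (orange); the x axis is the distance from the thresholded summit in bp on the plus strand, and shading marks 50 bp to either side. Core places lie inside the shading for cdo-1, cysl-2 at -1127 bp, cysl-3 and cbs-1.

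The genes without a thresholded summit did not lack the core upstream. In the 2000 bp upstream of the start there were 3 places for cbs-2, 5 for cth-1 and 7 for cth-2, where the median over all protein-coding genes was 3. For cdo-1 there were 8, and 3.66% of genes had at least as many. The numbers were 5 for cysl-1, 4 for cysl-2, 3 for cbs-1 and 2 for cysl-3. In 5000 bp upstream the 8 genes had 79 places in all, and 5 of these lay within 50 bp of a thresholded summit. No share over all genes is given beside this count. In these 5000 bp there were 5 places for cbs-2, 8 for cth-1 and 11 for cth-2, where the median over all protein-coding genes was 7. At least as many were found for 81.4%, 47.1% and 19.5% of genes. The windows of these genes held no thresholded or pooled summit, so none of their places could lie near one. A match of letters is a description and does not show a binding site.

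**Figure D5:**
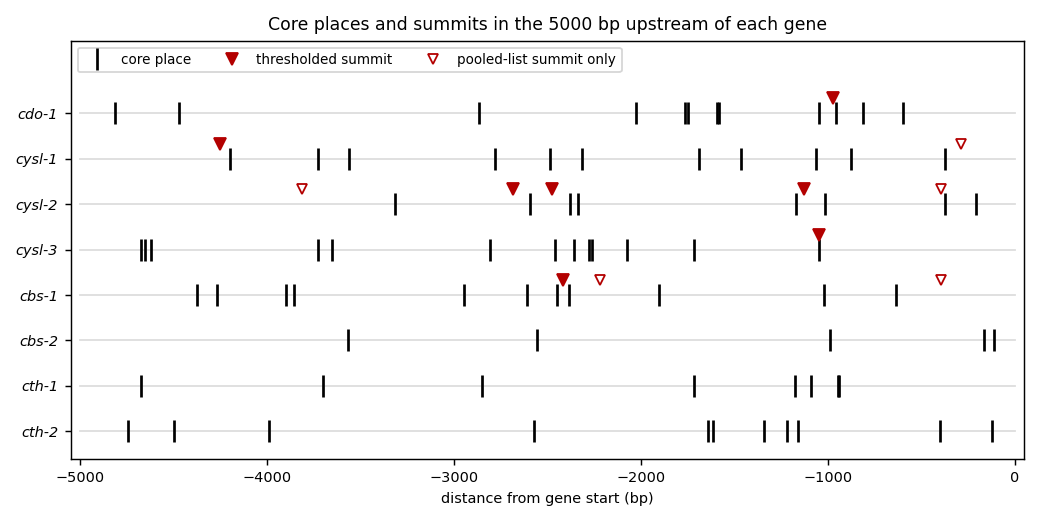
Places of ACGTG or GCGTG (ticks) in the 5000 bp upstream of each gene, with thresholded summits (filled triangles) and other pooled summits (open triangles); the x axis is the distance from the gene start in bp. The rows of cbs-2, cth-1 and cth-2 hold 5, 8 and 11 places and no summit.

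Peaks of other genes with the most similar ranks were found by the distance between log10 ranks in the pooled list and in both replicates, over 293 nuclear thresholded peaks at promoters. The pooled list holds the reads of the replicates, so the 3 ranks are not independent. The replicate 1 ranks used for cdo-1 (195) and cysl-1 (637) are those of the strongest summit within 150 bp. The nearest summits ranked 621 and 4462, and likeness with these ranks is not given. The peak of cysl-3 was most like one at the shared promoter of R08E5.1 and rips-1 (distance 0.01, ranks 86, 74 and 93 in the pooled list, replicate 1 and replicate 2). The peak of cdo-1 was most like a second peak at that same promoter (distance 0.05, ranks 138, 181 and 84), followed by pcn-1, the gene of the replication clamp (0.12). For cbs-1 the nearest were taap-1 (0.05) and the promoter shared by nhl-2 and tag-340 (0.07). For cysl-2 they were rbr-2, a histone H3 lysine demethylase gene (0.08), and cdc-48.1, which encodes an AAA ATPase (0.10). For cysl-1 they were the promoter of aka-1 and ubc-6 (0.01) and wwp-1, a ubiquitin ligase gene (0.05), and cysl-3 had ints-4 of the Integrator complex in second place (0.07).

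R08E5.1 and rips-1, whose name records an interaction with RHY-1 in the sulfide response, are also neighbours of cysl-3. Their peaks had signals of 168 and 118 and lay 4483 and 4184 bp downstream of the cysl-3 start, beyond the window used for cysl-3. With the peak of cysl-3 itself, 3 thresholded summits of signal 118 or more thus lay on this stretch of chromosome V.

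Other genes around cysteine, together with 5 regulators of HIF-1, were described from a list of 42, of which 36 names matched an annotated gene. A thresholded summit lay at the promoter of 6 and in the window of 10 of the 36, where 1.97% and 5.72% of all protein-coding genes had one. The 5 HIF-1 regulators, which are not cysteine genes, made up 2 of the 6 and 3 of the 10. The list was chosen with earlier results known, and these counts are a description. Of 9 genes of sulfide oxidation and sulfur transfer, 3 had one at the promoter, namely sqrd-1 (sulfide quinone oxidoreductase, signal 590), ethe-1 (persulfide dioxygenase, 140) and mpst-3 (a mercaptopyruvate sulfurtransferase gene, 105). The peak of mpst-3 also lay in the window of its neighbour mpst-2. Of 8 genes of the methionine cycle, which supplies homocysteine to cbs-1 and cbs-2, 0 had a promoter summit and 1 a summit in the window, the methionine synthase reductase gene mtrr-1 (93.4). Of 7 genes of other cysteine use, cars-1, the cysteinyl-tRNA synthetase gene, had one at the promoter (65.0) and the aspartate aminotransferase gene got-1.2 one in the window (116, at -3871 bp).

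Both genes of glutathione synthesis (gcs-1 and gss-1) and the 5 matched genes for the molybdenum cofactor, which sulfite oxidase needs at the end of cysteine breakdown, had no thresholded summit in the window. The sulfite oxidase gene suox-1 had none either. Nor did mpst-1, mpst-4, mpst-6 and mpst-7 of the sulfurtransferase genes. Of the 5 HIF-1 regulators, rhy-1 (838) and egl-9 (122), whose products act with CYSL-1, had a promoter summit. The strongest summit in the egl-9 window had a signal of 688 and lay at -1744 bp, outside the promoter. The hif-1 gene itself had 2 summits in the window and none at the promoter, the stronger with a signal of 146 at -2017 bp. The window of 2 regulators, vhl-1 and aha-1, held no thresholded summit.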

How the data were processed

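HIF-1 ChIP-seq of 2 replicates of 1 group was used in the form of peak lists on ce11. Per the deposited descriptions, each replicate list and the pooled list was made by the authors from alignments and a control as input for an irreproducible discovery rate analysis, and the thresholded set was derived from these 3 lists. No aligner, peak caller or threshold is named (not given in the sources used here), and the control library and the ce10 lists were not used here. The deposited signal value of each peak is the authors' own, with a formula that is not given, and served only for description and for ranks inside each list. The deposited −log10 q-value reaches a ceiling (2.11 in the thresholded set) and was not used for ranking. Depth is unknown, so no interval was computed.

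Summits were set against Ensembl release 115 models of WBcel235, in 1-based coordinates. A replicate summit was matched to a thresholded one as the strongest within 150 bp. Cores were searched on both strands in the RefSeq WBcel235 sequence. Uniqueness is the share of 36-base sequences found once in the genome on either strand, and protein identity comes from global alignments (BLOSUM62, gap open 10, gap extension 0.5) of the translated longest coding transcripts. Python 3.11.15, numpy 2.4.6, Biopython 1.88 and matplotlib 3.10.9 were used, and the window, nearest start and core searches were tested on simulated data. No test between groups was possible with 1 group.

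The 8 genes, the other gene list, the sequences searched and the windows were chosen with earlier results of these data known. The genes named are the 8 members, the genes at their thresholded summits, and the 2 most similar promoter peaks for each member with a thresholded summit. Also named are genes of the other list with a thresholded promoter summit, up to 8 by signal. The genes rhy-1, egl-9 and sqrd-1 fall under the last. Named beyond that rule, after their values were seen, are mtrr-1, got-1.2, mpst-2, suox-1, gcs-1, gss-1, cysl-4, hif-1, vhl-1, aha-1 and the other mpst genes. Alternatives covered the windows, the peaks counted, the search distance for the core, and each replicate alone.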

Additional observations from a re-analysis of the deposited data

How the results depend on the processing

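Of the 5 genes with a thresholded summit in the window, 3 remained (cdo-1, cysl-2 and cysl-3) with a window of 2 kb upstream to the gene end, and 3 when a summit counted only for the nearest start. The count was 4 to 5 with 1 replicate left out, and 5, 5 and 4 with 10 kb upstream, peak overlap and the stronger 50% of peaks. The counts of 5 in the pooled list and in both replicates were 5 and 4 to 5 under their alternatives. The promoter count of 1 became 0 with 500 bp upstream to 100 bp downstream and 3 with 2000 bp upstream to 500 bp downstream, and was 1 to 2 with 1 replicate left out. The core count of 4 became 2 within 25 bp, 7 within 100 bp and 7 within 200 bp, and was 3 to 4 at the replicate summits nearest to the thresholded ones. Among nuclear peaks alone the rank of cysl-3 was 69 in place of 87 and that of cbs-1 19 in place of 36. The rank of cysl-2 was 42 in place of 59, that of cdo-1 108 in place of 126 and that of cysl-1 400 in place of 419. With 1 replicate left out ranks ran from 73 to 92 for cysl-3, 36 to 37 for cbs-1, 82 to 195 for cdo-1, 285 to 637 for cysl-1 and 49 to 74 for cysl-2. With the nearest replicate 1 summit in place of the strongest, an alternative chosen after seeing the data, cdo-1 ranked 621, cysl-1 4462 and cysl-3 73, and with the nearest of replicate 2 cbs-1 ranked 37. Where a value moved, the cause was not tested beyond the change of setting itself. No share over all protein-coding genes is given for the gene counts under these alternatives. No paired analysis was possible because all samples belong to 1 group. Unknown depth limits what can be said of genes without a summit.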
